A study of Mus musculus with 6 samples.

Results

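The 8 genes Ucma, Arhgap36, Igsf1, Pcsk2, Ddc, Serpinb1a, Klhl13 and Dmp1 were taken by symbol from a table of 27131 genes, as genes whose counts were already known to be low in wild-type muscle and much higher in mice that model SBMA, an inherited disease of motor neurons and muscle (spinal and bulbar muscular atrophy). RNA-seq libraries were made from the levator ani/bulbocavernosus (LA/BC), pelvic muscles that depend on androgens. The 3 animals labelled 113Q carry the SBMA knock-in and the 3 labelled WT are wild type, all fed standard chow and taken at 14 weeks of age, with 1 library per mouse. 113Q names the knock-in allele. The labels name no treatment, litter or batch.

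The 8 genes have no shared pathway in textbook knowledge, and most are known from tissues other than adult muscle. Ucma and Dmp1 encode secreted proteins of cartilage and of bone and dentine. Pcsk2 and Ddc serve peptide hormone and monoamine production in neuroendocrine cells. Arhgap36 and Igsf1 are known from the developing nervous system and the pituitary. Serpinb1a and Klhl13 encode intracellular proteins of wider use, a protease inhibitor and a ubiquitin ligase adaptor.

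The estimated counts summed to between 67897870 and 73873481 in the 113Q libraries and between 43581087 and 68983982 in the WT libraries. Levels are in CPM: each count was divided by its library's size after TMM correction for differences in composition. All 16960 genes that passed a filter on low counts were compared with edgeR, and all 8 genes were among them. Of the tested genes, 16.5% were higher and 18.1% lower in 113Q at an adjusted p below 0.05, 34.6% in either direction. With library totals in place of TMM factors, log2 fold changes shifted upward by 0.72 in the median. Of 8 myofibre markers, 8 were lower in 113Q, with summed levels of 43898 to 52417 CPM in 113Q and 145593 to 155444 CPM in WT. In bulk tissue, fewer cells of a type and less RNA per cell cannot be told apart. Epithelial transcripts were present in some libraries of both genotypes: Epcam, an epithelial adhesion molecule, was at 0, 8.29 and 10.2 CPM in 113Q mice 1, 2 and 3 and at 0, 3.83 and 0.0385 CPM in WT mice 1, 2 and 3. The 8 epithelial and gland markers summed to 1.31, 48.2 and 92.9 CPM in the 113Q mice and 2.1, 59.7 and 2.39 CPM in the WT mice, and 0 passed the edgeR test.

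The 8 genes lie on 5 chromosomes, and 3 of them are on the X chromosome. In the GENCODE annotation of mm10, Arhgap36 (chromosome X, 49463945 to 49500244, plus strand) and Igsf1 (chromosome X, 49782536 to 49797749, minus strand) lie 282291 bases apart with no other tested gene between them. Klhl13 is elsewhere on the same chromosome (23219271 to 23365082, minus strand). Ucma (4976122 to 4985748) and Pcsk2 (143546156 to 143816285) are both on the plus strand of chromosome 2, far apart. Ddc is on chromosome 11 (11814101 to 11898144, minus strand), Serpinb1a on chromosome 13 (32842092 to 32851185, minus strand) and Dmp1 on chromosome 5 (104202613 to 104214102, plus strand). Of 15743 tested genes with a position, 3.33% are on X. Of the 56 other genes that were at least 10 times higher without overlap between groups, 4 (7.14%) are on X.

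Promoter windows of 250 bases before to 50 bases after the start were found for 7 of the 8 genes in RefSeq (GRCm38.p6, the assembly of mm10). The most upstream window listed for each was searched for short motifs on both strands. These need not be the most upstream starts in RefSeq. The RefSeq span of Arhgap36 starts at 49448360, upstream of its window, and that of Igsf1 starts at 49797907, inside its window. The windows of the 4 genes with the largest ratios between groups are shown 5′ to 3′, as the genes with the widest gap between 113Q and WT. Capitals mark the E-box CANNTG, a motif bound by basic helix-loop-helix factors. The windows are chr2:4975872-4976171 (plus strand) for Ucma, chrX:49463695-49463994 (plus strand) for Arhgap36, chrX:49797696-49797995 (minus strand) for Igsf1 and chr2:143545883-143546182 (plus strand) for Pcsk2.
Ucma: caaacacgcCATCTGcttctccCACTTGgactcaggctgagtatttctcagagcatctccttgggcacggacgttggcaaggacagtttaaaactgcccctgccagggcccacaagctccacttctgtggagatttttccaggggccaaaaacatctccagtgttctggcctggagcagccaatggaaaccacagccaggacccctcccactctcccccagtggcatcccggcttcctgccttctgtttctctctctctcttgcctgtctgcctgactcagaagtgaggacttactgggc
Arhgap36: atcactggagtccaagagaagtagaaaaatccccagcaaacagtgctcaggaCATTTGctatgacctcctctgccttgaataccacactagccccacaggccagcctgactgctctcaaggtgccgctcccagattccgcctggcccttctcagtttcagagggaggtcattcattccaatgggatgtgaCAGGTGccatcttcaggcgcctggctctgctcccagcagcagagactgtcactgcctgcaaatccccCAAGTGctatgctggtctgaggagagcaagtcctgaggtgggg
Igsf1: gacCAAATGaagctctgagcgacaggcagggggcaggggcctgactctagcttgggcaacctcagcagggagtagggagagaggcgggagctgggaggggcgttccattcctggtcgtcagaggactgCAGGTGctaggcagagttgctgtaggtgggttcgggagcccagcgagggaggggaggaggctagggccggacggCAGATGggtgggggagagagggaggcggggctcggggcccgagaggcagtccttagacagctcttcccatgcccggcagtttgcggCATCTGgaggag
Pcsk2: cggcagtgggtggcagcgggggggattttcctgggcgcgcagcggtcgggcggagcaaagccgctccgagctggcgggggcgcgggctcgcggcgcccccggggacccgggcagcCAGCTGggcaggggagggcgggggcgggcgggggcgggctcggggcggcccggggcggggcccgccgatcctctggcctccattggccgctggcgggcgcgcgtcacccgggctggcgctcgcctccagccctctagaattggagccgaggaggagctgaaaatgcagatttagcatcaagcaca
The 4 windows differ in composition, with 76.3% G and C in Pcsk2, 66.0% in Igsf1, 55.7% in Arhgap36 and 56.0% in Ucma, beside a median of 52.7% over 27025 genes. Of the 7 windows, 6 hold CANNTG, a motif that 72.1% of all windows hold. The narrower form CAGCTG, which overlaps CANNTG, is in 3 of 7 (Pcsk2, Klhl13 and Dmp1) and in 16.1% of all windows. AGAACA, a core of androgen response elements, is in 2 of 7 (Ucma and Dmp1) and in 19.0% of all. The Dmp1 window searched (chr5:104197325-104197624) lies wholly upstream of the GENCODE start given above (104202613). The RUNX motif TGTGGT is in 2 of 7 (Ucma and Arhgap36; 16.9% of all), the AP-1 motif TGANTCA in 2 of 7 (Ucma and Ddc; 7.92%), TGACG, from the cAMP response element, in 2 of 7 (Igsf1 and Pcsk2; 20.9%), and the GLI core CCACCCA in 2 of 7 (Igsf1 and Pcsk2; 9.32%). The TATA box TATAAA is in 1 of 7 (Ddc; 14.2%) and the forkhead motif TGTTTAC in 0 of 7 (3.52%). No motif other than CANNTG was in more than 3 of the 7 windows.

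The values of the 8 genes in the 113Q and WT libraries are those they were chosen on, so they are given without a test. In each of the 8, the lowest 113Q mouse was above the highest WT mouse, a pattern met by 25.1% of all tested genes. The fitted fold was at least 10 in all 8 and in 0.513% of tested genes. The ratio of mean levels ran from 10.4 for Klhl13 to 143.3 for Ucma, and the median log2 fold change was 4.25, beside 0.01 over all tested genes. The label of near silence in WT held for some of them only. On a scale of CPM per kilobase of exon, the WT level of Dmp1 exceeded that of 0.584% of the 15078 tested genes with a known length. For Arhgap36, Pcsk2, Ucma, Ddc and Igsf1 this share was 6.74%, 6.82%, 15%, 16.9% and 21.3%. For Klhl13 and Serpinb1a it was 41.6% and 52.7%, which is the middle of the range and not near silence.

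**Figure D1:**
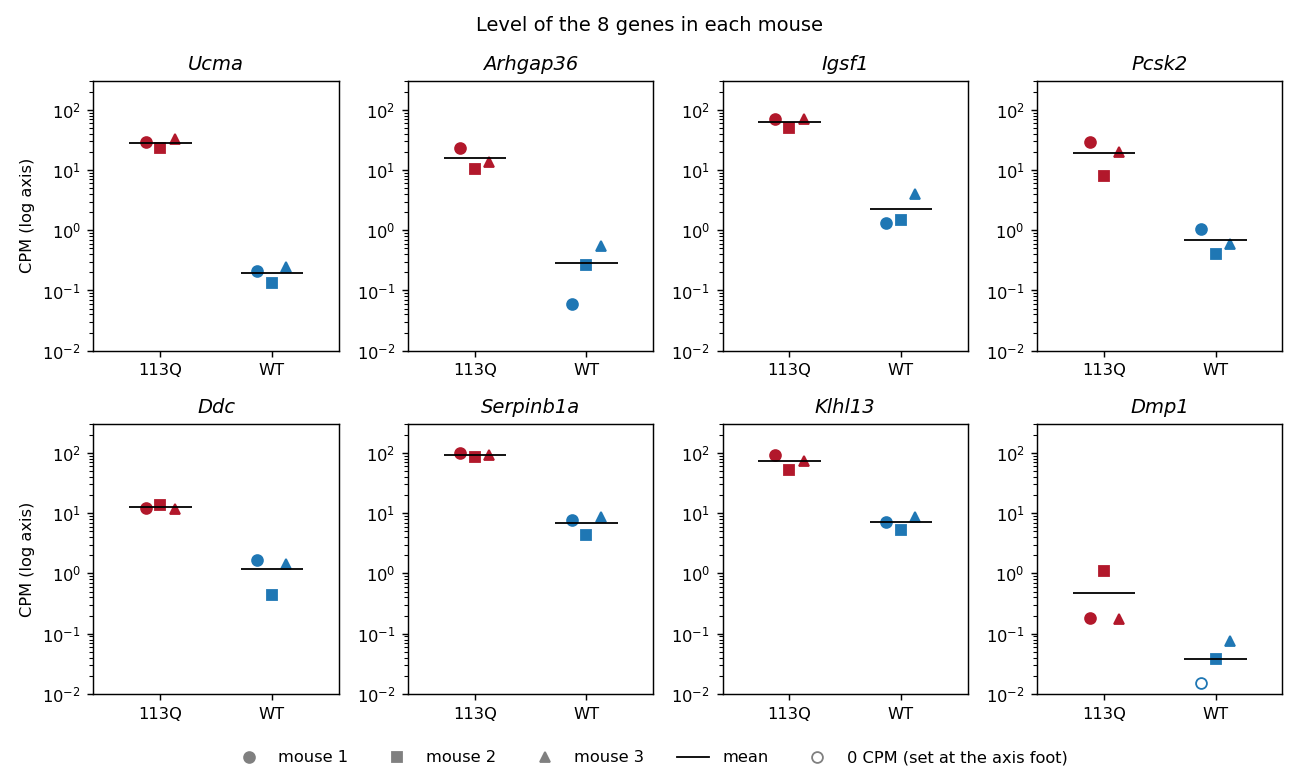
Level of each of the 8 genes in every mouse, in CPM on a log axis. Symbols mark mice 1 to 3 of each genotype and the line is the group mean (n = 3), and in no panel do the groups overlap. The open symbol is the WT library with 0 CPM of Dmp1.

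Ucma, which encodes a small Gla protein of the cartilage matrix, was at 29.3, 22.9 and 32.3 CPM in the 113Q mice, against 0.207, 0.132 and 0.25 CPM in the WT mice. The 3 113Q libraries lay within 1.41 times of each other, and the lowest of them was 91.6 times above the highest WT library. The WT level rests on 27 counts over 3 libraries (exact 95% Poisson interval 17.8 to 39.3, counting error only), against 7683 in 113Q, and the log2 fold change was 7.16 (SE 0.24). Among 16746 tested genes with more than 3 WT counts, the ratio of 143.3 ranked 1. The per-kilobase level in 113Q exceeded that of 92.5% of tested genes.

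Dmp1, an acidic phosphoprotein of osteocytes and dentine, was at 0.179, 1.1 and 0.172 CPM in the 113Q mice, against 0, 0.0377 and 0.077 CPM in the WT mice. Only 113Q mouse 2 was high, with 98 counts, while 113Q mice 1 and 3 had 16 each and the WT mice 0, 2 and 4. The log2 fold change was 3.47 (SE 1.08), and 2.03 without 113Q mouse 2. Acan, a cartilage proteoglycan chosen after its values were seen, was at 0.324, 1.36 and 0.0429 CPM in the 113Q mice. In the WT mice it was at 0, 0.849 and 0.077 CPM. It was thus also highest in 113Q mouse 2, as were Phex (1.9, 2.81 and 1.53 CPM) and Sost (0.313, 0.592 and 0 CPM) of the mineralised matrix list below. The cartilage genes Col2a1 (0.357, 0.101 and 0.161 CPM) and Comp (4.19, 2.45 and 4.0 CPM) were lowest in that mouse. The part of cells with these transcripts in the Dmp1 value was not tested.

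Arhgap36, an inhibitor of the protein kinase A catalytic subunit and an activator of the Hedgehog effectors of the GLI family, was at 22.9, 10.3 and 13.5 CPM in the 113Q mice, against 0.0592, 0.264 and 0.539 CPM in the WT mice. Both groups were spread, by 2.22 times in 113Q and 9.10 times in WT, where mouse 1 had 2 counts and mouse 3 had 28. The lowest 113Q library was still 19.1 times above the highest WT library. The ratio of means was 54.1 (log2 fold change 5.66, SE 0.65).

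Igsf1, a membrane glycoprotein of the immunoglobulin superfamily whose loss in humans causes central hypothyroidism, was at 69.6, 49.6 and 69.4 CPM in the 113Q mice, against 1.33, 1.49 and 4.02 CPM in the WT mice. WT mouse 3 was the highest of the WT libraries, as it was for Arhgap36. The ratio was 27.5 (log2 fold change 4.75, SE 0.48), and the log2 fold change was 5.47 without WT mouse 3.

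Pcsk2, prohormone convertase 2, cuts peptide hormone precursors inside dense-core granules. It was at 29.6, 8.06 and 20.2 CPM in the 113Q mice, against 1.04, 0.396 and 0.597 CPM in the WT mice. The 113Q mice differed by 3.67 times, with mouse 2 the lowest. The ratio was 28.5 (log2 fold change 4.88, SE 0.65). Ddc, the decarboxylase that makes dopamine and serotonin from their precursors, was at 12.4, 13.5 and 11.7 CPM in the 113Q mice, against 1.69, 0.434 and 1.41 CPM in the WT mice. The 113Q libraries were within 1.16 times of each other and WT mouse 2 was lowest. The ratio was 10.7 (log2 fold change 3.44, SE 0.45).

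Serpinb1a, an inhibitor of elastase-like serine proteases, was at 100.2, 86.6 and 92.0 CPM in the 113Q mice, against 7.64, 4.34 and 8.78 CPM in the WT mice. The 113Q libraries were again within 1.16 times of each other. The ratio was 13.4 (log2 fold change 3.75, SE 0.26), and the per-kilobase level in 113Q exceeded that of 94.2% of tested genes, the highest of the 8. Klhl13, an adaptor that brings substrates to the cullin 3 ubiquitin ligase, was at 91.5, 53.1 and 73.7 CPM in the 113Q mice, against 7.28, 5.23 and 8.55 CPM in the WT mice. The ratio was 10.4 (log2 fold change 3.37, SE 0.27).

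**Figure D2:**
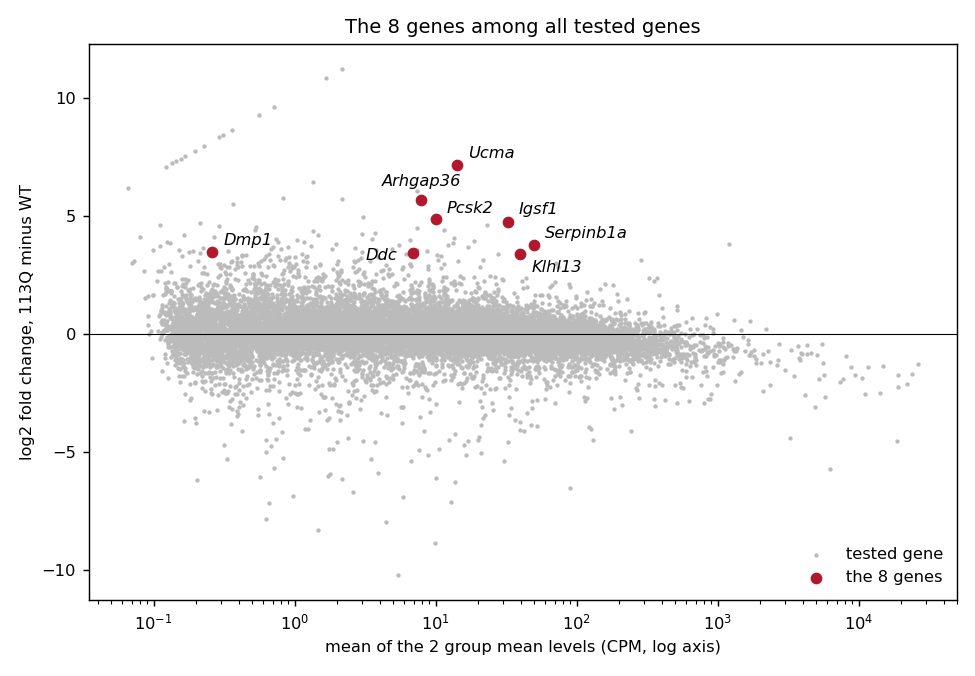
Log2 fold change (113Q minus WT) of each tested gene against the mean of the 2 group mean levels in CPM on a log axis, with the 8 genes in red. Ucma has a log2 fold change of 7.16 and Klhl13 one of 3.37. The line of points at the upper left is made of genes at or near 0 counts in WT, whose fitted value depends on the prior count.

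The 8 genes did not follow 1 order among the mice. In 113Q, mouse 2 was the lowest of the 3 for 6 genes, all but Ddc and Dmp1, for which it was the highest. Mouse 1 was the highest for 5 of them. In WT, mouse 3 was the highest for 6 genes, and mouse 1 for Pcsk2 and Ddc. The coefficient of variation in 113Q ran from 7.36% for Serpinb1a and 7.49% for Ddc to 55.9% for Pcsk2 and 110.3% for Dmp1.

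Because the groups do not overlap for any of the 8, their direction is the same in any subset of the libraries, and the ratios by Epcam level are given for their size alone. In the libraries below 1 CPM, which are 113Q mouse 1 and WT mice 1 and 3, the ratio was 128.0 for Ucma, 76.4 for Arhgap36, 36.2 for Pcsk2, 26.0 for Igsf1, 12.2 for Serpinb1a, 11.6 for Klhl13, 8.05 for Ddc and 4.64 for Dmp1. In the libraries at or above it, which are 113Q mice 2 and 3 and WT mouse 2, it was 208.9 for Ucma, 45.1 for Arhgap36, 35.7 for Pcsk2, 39.9 for Igsf1, 20.6 for Serpinb1a, 12.1 for Klhl13, 29.1 for Ddc and 16.8 for Dmp1. Each of these ratios rests on a single library in 1 of the groups.

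The same bounds on level and ratio were met by other genes. Of 7229 tested genes with a WT mean no higher than that of Klhl13, 30 had a ratio of at least that of Klhl13 and a 113Q mean of at least 5 CPM, namely 7 of the 8 genes (all but Dmp1) and 23 others. The groups did not overlap for 7 of the 23 others, chosen here by their values: Bbox1, which makes carnitine, Pln, the inhibitor of the slow-type calcium pump, Cldn2, a tight junction protein, Gprasp2, 4933416E03Rik, RP23-302F9.1 and 1810041L15Rik. In the other 16, 113Q mouse 1 was below WT mouse 2. A4gnt, a glycosyltransferase of mucin-producing glands, was at 0.0223, 33.5 and 40.7 CPM in the 113Q mice, against 0.0296, 4.91 and 0.0385 CPM in the WT mice. It was high in the libraries with Epcam, whose part in its values was not tested. Just below the ratio of Klhl13 came Plbd1, a lysosomal hydrolase, at 50.3 CPM in 113Q and 4.87 CPM in WT (ratio 10.3).

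**Figure D3:**
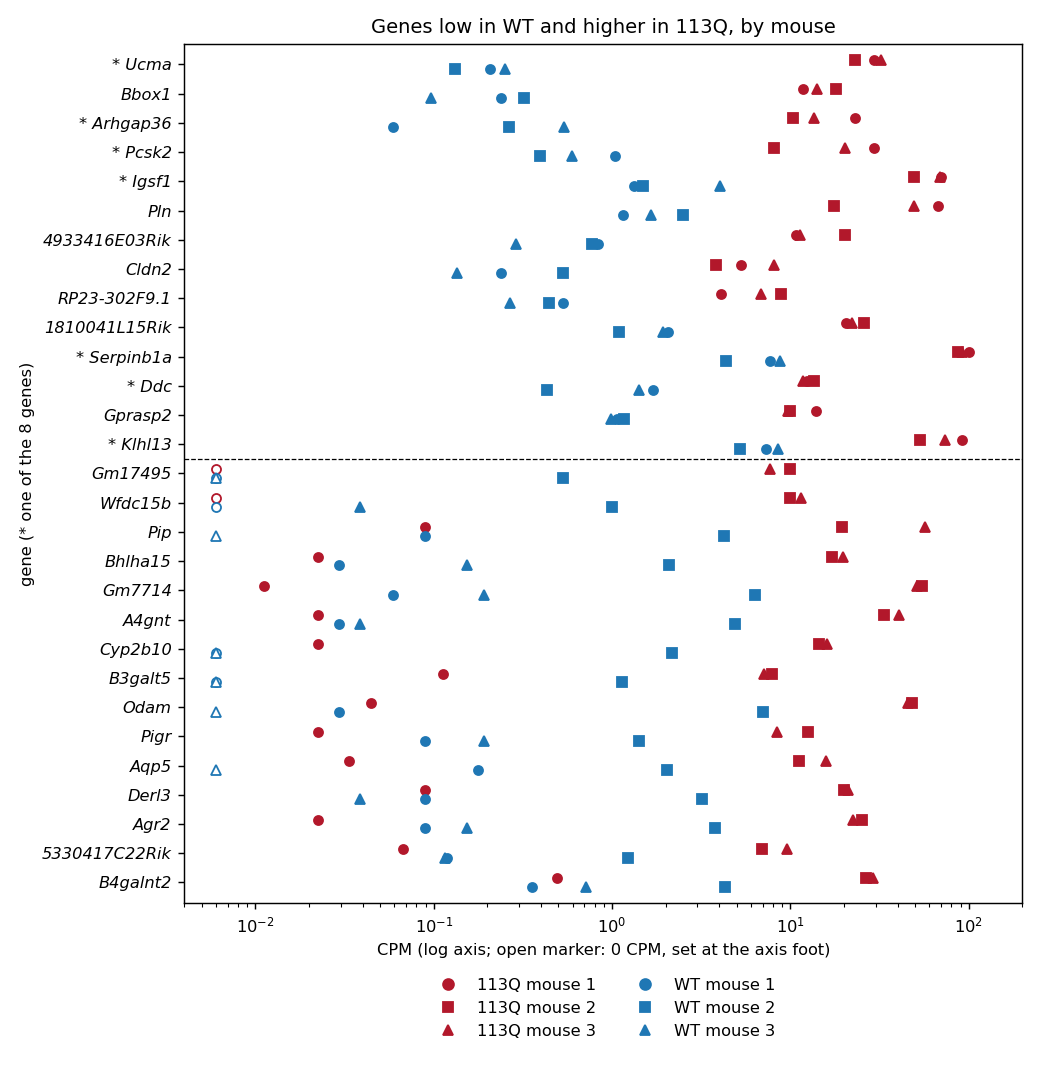
CPM in each mouse (log axis) of genes with a WT mean no higher, and a ratio of means no lower, than those of Klhl13 and a 113Q mean of at least 5 CPM. Above the dashed line are the 14 genes whose groups do not overlap, starred where they are among the 8, and below it 15 of the 16 genes that were low in 113Q mouse 1 and in WT mice 1 and 3.

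Likeness was measured as the root-mean-square distance over the 6 libraries between log2 CPM profiles, each centred on its own mean. The gene nearest to the median profile of the 8 was Rab9b, a small GTPase gene (distance 0.35), at 3.80, 1.82 and 2.66 CPM in the 113Q mice and 0.118, 0.113 and 0.212 CPM in the WT mice. En2, a homeobox gene (0.50), Plbd1 (0.59) and Syt17, a synaptotagmin (0.60), were the others of the nearest 10 with more than 3 WT counts. The remaining 6 (Zic5, Hoxc12, Tmem72, Raet1a, Gsdma and Ccno) had between 0.271 and 0.721 CPM in 113Q and at most 2 counts in WT. Nearest to single genes were Hoxc13 for Ucma (0.58), Syt17 for Arhgap36 (0.78) and Igsf1 (0.39), En2 for Pcsk2 (0.40), Nap1l3 for Ddc (0.48) and Klhl13 (0.22), Rab9b for Serpinb1a (0.34) and Arc for Dmp1 (0.51). Hoxc13 was at 6.42, 1.45 and 5.07 CPM in the 113Q mice and had 0 counts in WT, so its distance depends on the prior count.

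Marker lists for the cell types known for these genes were summed in each library. The 8 cartilage and bone markers summed to 0.692, 1.62 and 0.343 CPM in the 113Q mice and 0.178, 1.49 and 0.308 CPM in the WT mice, and 3 of them (Ibsp, Matn1 and Mepe) were at 0 in every library. The cartilage collagen Col2a1 was at 0.357, 0.101 and 0.161 CPM in the 113Q mice, where Ucma was at 22.9 CPM or more. Other genes used in cartilage were higher than these markers: Comp, a cartilage matrix protein also made in tendon, was at 4.19, 2.45 and 4.0 CPM in the 113Q mice and 0, 18.8 and 1.21 CPM in the WT mice. Chad, chondroadherin, was at 2.57, 1.95 and 0.965 CPM in the 113Q mice and averaged 3.47 ± 5.65 CPM in the WT mice (SD, n = 3), where mice 1 and 3 were at 0.148 and 0.269 CPM. Both were highest in WT mouse 2, and the groups overlap. Neither passed (edgeR adjusted p = 0.732 for Comp and 0.703 for Chad), but without WT mouse 2 Chad was higher in 113Q (log2 fold change 3.08, edgeR adjusted p = 0.0052; range over the alternatives 0.00452 to 0.983). Sox9, a transcription factor of cartilage and of gland epithelium, was at 3.25, 4.89 and 6.8 CPM in the 113Q mice and 4.2, 8.72 and 2.69 CPM in the WT mice. The part of these cells in the Ucma values was not tested. The 8 neuron and neuroendocrine markers summed to 4.50 to 4.74 CPM in 113Q and 3.61 to 4.83 CPM in WT. The markers of this list did not share 1 direction. Chga, the granule protein chromogranin A, was at 0.0558, 0 and 0.0214 CPM in the 113Q mice and 0.148, 0.0755 and 0.25 CPM in the WT mice. Syp was at 1.3, 2.52 and 1.78 CPM in the 113Q mice and 1.18, 1.23 and 1.12 CPM in the WT mice. Chgb was at 0.748, 0.324 and 0.386 CPM in the 113Q mice and 0.0592, 0 and 0.366 CPM in the WT mice. The 7 neutrophil markers in the table summed to 0.204 to 0.984 CPM in 113Q and 0.808 to 1.75 CPM in WT, with the peroxidase Mpo at 0 in every library. Of the tested markers in these 3 lists, 0 passed the edgeR test in either direction. Of 8 Schwann cell markers 2 were higher in 113Q, with sums of 158.3 to 225.5 CPM in 113Q and 149.3 to 194.3 CPM in WT. Of 8 fibroblast and tenocyte markers 0 passed, with sums of 672.5 to 856.3 CPM in 113Q and 423.9 to 873.0 CPM in WT. Of these, Tnmd (0.533, 6.83 and 3.31 CPM in the WT mice), Fmod (3.76, 55.5 and 28.4) and Thbs4 (29.5, 149.6 and 56.8) had the WT order of Comp and Chad. Pdgfra, Dcn, Lum and Col1a1 were instead highest in WT mouse 3, and Scx was lowest there. The part of tendon in the Comp and Chad values was not tested.

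The known partners of the 8 genes were then compared between 113Q and WT as genes outside the choice. Of 106 partner genes tested in 7 lists, 24 rose, 20 fell and the rest did not pass (edgeR, adjusted p below 0.05), beside 16.5% higher and 18.1% lower among all genes. With library totals in place of TMM factors, 62 were higher and 11 lower. With only 113Q mouse 1 and WT mice 1 and 3, the libraries below 1 CPM of Epcam, 13 were higher.

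Around Pcsk2, 3 of 12 tested genes of prohormone processing and dense-core granules rose (25%) and 0 fell, with a median log2 fold change of 0.44. Cpe, the carboxypeptidase that trims peptides after convertase cuts, was at 332.4, 291.1 and 318.3 CPM in 113Q and 164.8, 129.0 and 183.2 CPM in WT, and the groups did not overlap (log2 fold change 0.98, SE 0.13, edgeR adjusted p = 0.000841). Pcsk4 (0.91, edgeR adjusted p = 0.00902) and the site-1 protease Mbtps1 (0.44, edgeR adjusted p = 0.00205) also rose, though Pcsk4, at 0.70, did not pass in the fit with 113Q mouse 1 and WT mice 1 and 3 only (range of adjusted p over the alternatives 0.000155 to 0.195). Scg5, the chaperone that convertase 2 needs to mature, was at 0.246, 0.212 and 0.311 CPM in 113Q and 0.148, 0.0755 and 0.154 CPM in WT, and its log2 fold change of 1.03 did not pass (edgeR adjusted p = 0.139). Furin had a log2 fold change of -0.32 (edgeR adjusted p = 0.0511), which was 0.40 with library totals alone. Chgb, at a log2 fold change of 1.72, and Pcsk1n, at -1.34, did not pass (edgeR adjusted p = 0.235 and 0.363). Chga, Scg2, Vgf and Pcsk1 were below the count filter.

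Around Ddc, 6 of 17 tested genes of amine synthesis and breakdown rose (35.3%) and 4 fell (23.5%). The 3 hydroxylases that make the substrates of the decarboxylase fell. Tph1, tryptophan hydroxylase 1, was at 0.413, 0.279 and 0.129 CPM in 113Q and 2.46, 1.85 and 3.77 CPM in WT (log2 fold change -3.29, SE 0.47, edgeR adjusted p = 0.00122). Tph2 was at 0.401 ± 0.118 CPM in 113Q and 1.75 ± 0.963 CPM in WT (SD, n = 3 each; log2 fold change -2.12, edgeR adjusted p = 0.0134), and its call was lost without 113Q mouse 1 or 3 and with the epithelial term or the replicate block, where the log2 fold change lay between -2.01 and -1.69, as well as in the Epcam-positive libraries alone, at -0.55. Th, tyrosine hydroxylase, was at 0.368, 0.235 and 0.461 CPM in 113Q and 1.45, 0.528 and 1.42 CPM in WT (log2 fold change -1.67, edgeR adjusted p = 0.0256). The call of Th was lost without 113Q mouse 1 or 2 or WT mouse 1 or 3, where the log2 fold change lay between -1.69 and -1.44. It was also lost with the epithelial term (-1.29) and with library totals alone (-0.95). The log2 fold change of Th was -0.60 in the libraries with epithelial transcripts and -1.96 in those without them. Gch1, the first enzyme of the hydroxylases' cofactor tetrahydrobiopterin, fell too (-0.80, edgeR adjusted p = 0.00545), a value that was -0.08 with library totals alone.

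Other genes of tetrahydrobiopterin supply and of amine breakdown rose, while Pts, the step after Gch1, did not pass (log2 fold change 0.17, edgeR adjusted p = 0.322). Pdxk, also in the list, did not pass either (-0.20, edgeR adjusted p = 0.263). Pcbd1, which recycles the cofactor, was at 5.77, 4.92 and 4.32 CPM in 113Q and 1.01, 0.585 and 0.635 CPM in WT (log2 fold change 2.77, SE 0.27, edgeR adjusted p = 0.000178). Spr, which makes the cofactor (0.47, edgeR adjusted p = 0.00521), and Qdpr, which regenerates it (0.46, edgeR adjusted p = 0.0109), rose by less. Maoa, a monoamine oxidase, was at 26.9 ± 2.61 CPM in 113Q and 13.2 ± 2.25 CPM in WT (SD, n = 3 each; log2 fold change 1.02, edgeR adjusted p = 0.000977). Maob was at 94.7 ± 6.98 CPM in 113Q and 32.0 ± 11.6 CPM in WT (SD, n = 3 each; edgeR adjusted p = 0.00846). Spr lost its call in the libraries without epithelial transcripts, where its log2 fold change was 0.30 (range of adjusted p over the alternatives 1.63e-05 to 0.18), and Qdpr in those with them, at 0.32. Without 113Q mouse 1 the list had 2 genes that fell.

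**Figure D4:**
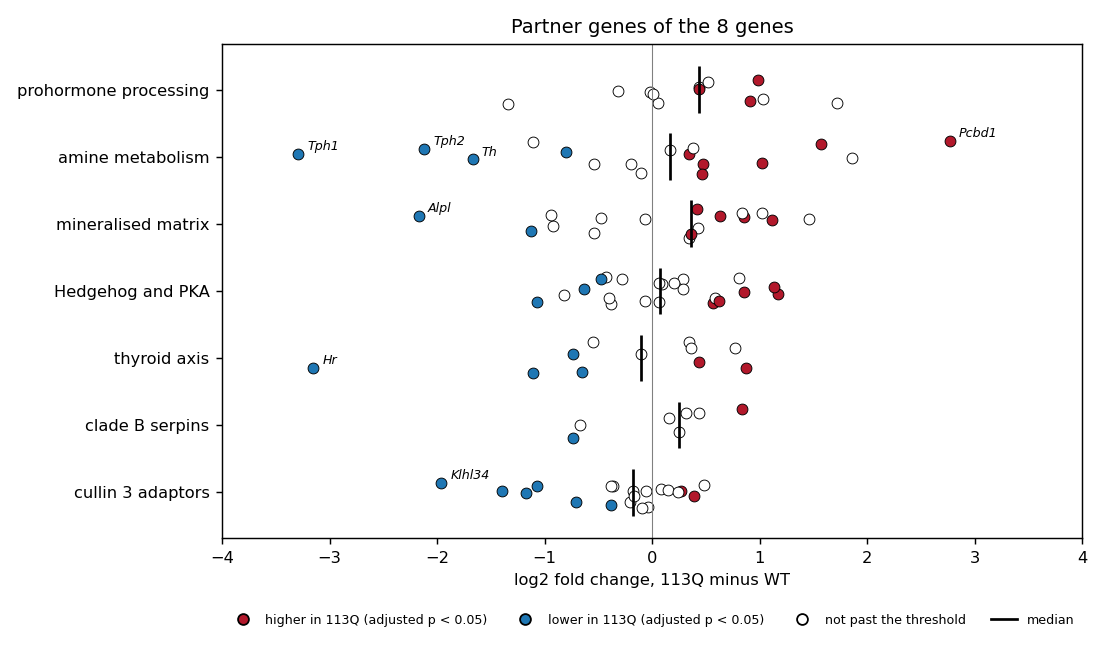
Log2 fold change (113Q minus WT) of the tested genes in each partner list, filled where the edgeR adjusted p was below 0.05, with the list median as a bar. Tph1 at -3.29 and Pcbd1 at 2.77 are the ends of the amine metabolism list.

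Around Ucma and Dmp1, 5 of 17 tested genes of mineralised matrix and Gla proteins rose (29.4%) and 2 fell (11.8%). The 2 that fell act on pyrophosphate and phosphate: Alpl, alkaline phosphatase, was at 5.78, 8.27 and 10.8 CPM in 113Q and 41.1, 38.5 and 32.0 CPM in WT (log2 fold change -2.17, SE 0.23, edgeR adjusted p = 0.000506). Ank, a pyrophosphate exporter, was at 121.6, 132.0 and 129.1 CPM in 113Q and 300.1, 273.0 and 264.5 CPM in WT (-1.13, SE 0.08, edgeR adjusted p = 5.51e-05). Those that rose include Ggcx, the carboxylase that makes Gla residues (0.42, edgeR adjusted p = 0.0148), Vkorc1, which supplies it with vitamin K (0.36, edgeR adjusted p = 0.0461), Fam20c, a kinase of secreted matrix proteins (0.63, edgeR adjusted p = 0.00757), and Enpp1, which makes pyrophosphate (1.11, edgeR adjusted p = 0.0154). Mgp, the matrix Gla protein, was at 35.6, 33.4 and 27.4 CPM in 113Q and 11.3, 22.3 and 19.7 CPM in WT (0.85, edgeR adjusted p = 0.0388). Mgp lost its call without any of the 3 113Q mice or without WT mouse 3, with log2 fold changes of 0.78 to 0.96 there. Vkorc1 lost it without any single mouse (0.29 to 0.39), Enpp1 without 113Q mouse 1 (0.90) and Ggcx without 113Q mouse 3 (0.41), and the number that rose was 2 without 113Q mouse 1 or 3 and 3 without 113Q mouse 2 or WT mouse 3. Spp1, osteopontin, a neighbour and relative of Dmp1, was at 2.94 ± 0.913 CPM in 113Q and 2.17 ± 0.789 CPM in WT (SD, n = 3 each) and did not pass (edgeR adjusted p = 0.359).

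Around Arhgap36, 5 of 22 tested genes of Hedgehog signalling and protein kinase A rose (22.7%), 3 fell (13.6%) and 14 did not pass. Both co-receptors that rose are surface proteins that help bind Hedgehog ligands. Gas1 was at 67.7, 64.6 and 71.4 CPM in 113Q and 27.2, 29.0 and 36.7 CPM in WT (log2 fold change 1.13, SE 0.12, edgeR adjusted p = 0.000254). Cdon was at 54.8, 48.0 and 44.4 CPM in 113Q and 20.3, 19.0 and 25.9 CPM in WT (1.17, SE 0.14, edgeR adjusted p = 0.00043). The transducer Smo (0.85, edgeR adjusted p = 0.0033), the GLI inhibitor Sufu (0.57, edgeR adjusted p = 0.0131) and the kinase Prkx (0.62, edgeR adjusted p = 0.00888) also rose, and Sufu lost its call without 113Q mouse 2 (0.51). The pathway's target genes did not pass: Gli1 was at 3.85 ± 0.511 CPM in 113Q and 3.61 ± 0.712 CPM in WT, and Ptch1 at 6.80 ± 0.0813 CPM in 113Q and 8.24 ± 0.696 CPM in WT (SD, n = 3 each; edgeR adjusted p = 0.779 and 0.133). Prkaca, the catalytic subunit that Arhgap36 inhibits, was at 259.0 ± 10.1 CPM in 113Q and 271.3 ± 30.7 CPM in WT (SD, n = 3 each; edgeR adjusted p = 0.641). Those that fell were the kinase inhibitors Pkig (-1.07, edgeR adjusted p = 0.000846) and Pkia (-0.48, edgeR adjusted p = 0.00956; 0.24 with library totals alone) and the regulatory subunit Prkar2a (-0.63, edgeR adjusted p = 0.00273), which was 0.09 and did not pass with library totals alone.

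Around Igsf1, 2 of 11 tested genes of the thyroid hormone axis rose and 4 fell (36.4%). Hr, a corepressor and thyroid hormone target, was at 9.75 ± 1.18 CPM in 113Q and 86.8 ± 47.9 CPM in WT (SD, n = 3 each; log2 fold change -3.15, SE 0.43, edgeR adjusted p = 0.00426). Slc16a10, a transporter of aromatic amino acids and thyroid hormone, fell (-1.11, edgeR adjusted p = 0.000117), as did the receptor Thrb (-0.74, edgeR adjusted p = 0.0135; -0.02 with library totals alone), and so did Klf9, a hormone-responsive transcription factor (-0.65, edgeR adjusted p = 0.000751), which was 0.07 with library totals alone. Thrsp, a lipogenic gene responsive to the hormone (0.87, edgeR adjusted p = 0.00183), and Tbl1x, part of a corepressor complex (0.44, edgeR adjusted p = 0.017), rose, but 1 of the 2 was not called without 113Q mouse 1 or 2, and 0 were in the libraries without epithelial transcripts. Trhr, the receptor for thyrotropin-releasing hormone, had 32 counts over the 113Q libraries and 3 over the WT libraries and was below the count filter.

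Around Serpinb1a, 1 of 7 tested clade B serpins and neutrophil proteases rose and 1 fell. Serpinb9, an inhibitor of granzyme B, was at 16.7 ± 1.67 CPM in 113Q and 9.31 ± 0.847 CPM in WT (SD, n = 3 each; log2 fold change 0.84, edgeR adjusted p = 0.00133). Serpinb6a, the most abundant of the family here, was at 1167 ± 159 CPM in 113Q and 1943 ± 201.2 CPM in WT (SD, n = 3 each; -0.74, edgeR adjusted p = 0.00273), a value that was -0.01 with library totals alone. The close copy Serpinb1c was at 0.884 ± 0.2 CPM in 113Q and 0.653 ± 0.0248 CPM in WT (SD, n = 3 each; edgeR adjusted p = 0.309), Serpinb1b had 3 counts in 113Q and 5 in WT, and how the authors' counting divided reads among the copies is not given in the sources used here. Serpinb8 did not pass (0.31, edgeR adjusted p = 0.435). Elane, the neutrophil elastase that serpin B1 inhibits, had 0 counts in 113Q and 7.02 in WT.

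Around Klhl13, 6 of 20 tested genes of cullin 3 ligases fell and 2 rose. Klhl31, a muscle Kelch protein (-1.17, edgeR adjusted p = 0.00022), Klhl21 (-1.07, edgeR adjusted p = 0.000295), Kbtbd13, linked to nemaline myopathy in humans (-1.40, edgeR adjusted p = 0.00102), Klhl34 (-1.96, edgeR adjusted p = 0.00829) and Klhl30 (-0.38, edgeR adjusted p = 0.0171; 0.34 with library totals alone) fell. The scaffold Cul3 was at 183.8 ± 15.1 CPM in 113Q and 300.7 ± 37.4 CPM in WT (SD, n = 3 each; -0.71, edgeR adjusted p = 0.00178), which was 0.01 and did not pass with library totals alone. Klhl9, the close relative that acts with Klhl13 in human cells, was at 93.1 ± 2.70 CPM in 113Q and 95.8 ± 5.57 CPM in WT (SD, n = 3 each; edgeR adjusted p = 0.715). Klhl22 (0.39, edgeR adjusted p = 0.00817) and Klhl12 (0.27, edgeR adjusted p = 0.036) rose, and 1 of the 2 passed without any single mouse other than WT mouse 3.

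Of the 42 tested genes nearest to the 8 on their chromosomes (3 on each side, members left out), 10 rose (23.8%), 5 fell and 27 did not pass. Neighbours were taken by order, with no limit on distance. The distance ran from 0 kb for Gm12360 at Pcsk2 to 12747 kb for Il13ra1 at Klhl13. Among all tested genes 16.5% were higher and 18.1% lower. The median log2 fold change was 0.34 for the neighbours, beside 0.01 over all tested genes. The other 41 had a smaller difference than any of the 8 genes, the exception being Gm12360 at 3.6 (SE 0.48, edgeR adjusted p = 0.00089). Gm12360 is a long noncoding RNA named Pcsk2os2 in RefSeq, which runs antisense inside Pcsk2 (chromosome 2, 143747583 to 143789186) and shares 99 bases of exon with it. It was at 4.96, 1.59 and 3.6 CPM in the 113Q mice, against 0.326, 0.182 and 0.327 CPM in the WT mice, and 113Q mouse 2 was its lowest 113Q library, as for Pcsk2. The strand setting of the counting is not given in the sources used here, so reads of the pair cannot be told apart where they overlap. A further antisense gene, Pcsk2os1, shares 260 bases of exon with Pcsk2, and the pseudogene Gm14523 shares 108 with Klhl13 on the same strand. Neither symbol has counts here.

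Both flanking genes of Ddc rose. Grb10, an imprinted adaptor of growth factor receptors, was at 86.6 CPM in 113Q and 27.6 CPM in WT (log2 fold change 1.65, edgeR adjusted p = 7.96e-05), and Fignl1, a DNA repair ATPase, at 1.23 CPM in 113Q and 0.275 CPM in WT (2.13, edgeR adjusted p = 0.00194). Around Arhgap36 and Igsf1, Slc25a14, a mitochondrial carrier, rose (1.71, edgeR adjusted p = 0.000655) and Rbmx2 rose (0.70, edgeR adjusted p = 0.0234), while Enox2, the nearest on the other side of Arhgap36, had a log2 fold change of 0.32 (edgeR adjusted p = 0.0975). Next to Serpinb1a, Mylk4, a myosin light chain kinase, was at 258.7 CPM in 113Q and 1522 CPM in WT (-2.56, edgeR adjusted p = 3.95e-05), while Gmds, Wrnip1 and Serpinb9 rose by 1.19, 0.48 and 0.84 on the log2 scale (edgeR adjusted p = 0.0256, 0.0234 and 0.00133). Near Pcsk2, Dstn, an actin-depolymerising protein, and Kif16b rose by 1.43 and 0.32 (edgeR adjusted p = 0.0339 and 0.0231).

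Near Ucma and Dmp1 the called neighbours were lower in 113Q. Phyh, a peroxisomal hydroxylase (-0.64), and Bend7 (-0.57) near Ucma and Nudt9 (-0.57) and D930016D06Rik (-0.42) near Dmp1 fell (edgeR adjusted p = 0.00306, 0.0237, 0.000611 and 0.0296), and all 4 had a log2 fold change above 0 with library totals alone, from 0.08 to 0.31. Of the 6 neighbours of Klhl13, 0 passed in edgeR, but they lay 327.2 kb (Wdr44) to 12747 kb (Il13ra1) from it. Of the 15 called neighbours, 8 kept the call without each mouse in turn and 7 lost it without at least 1 (Bend7, Rbmx2, Kif16b, Dstn, Gmds, Wrnip1 and D930016D06Rik). Without WT mouse 3, 6 neighbours were higher, and without 113Q mouse 2 or 3, 3 were lower.

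**Figure D5:**
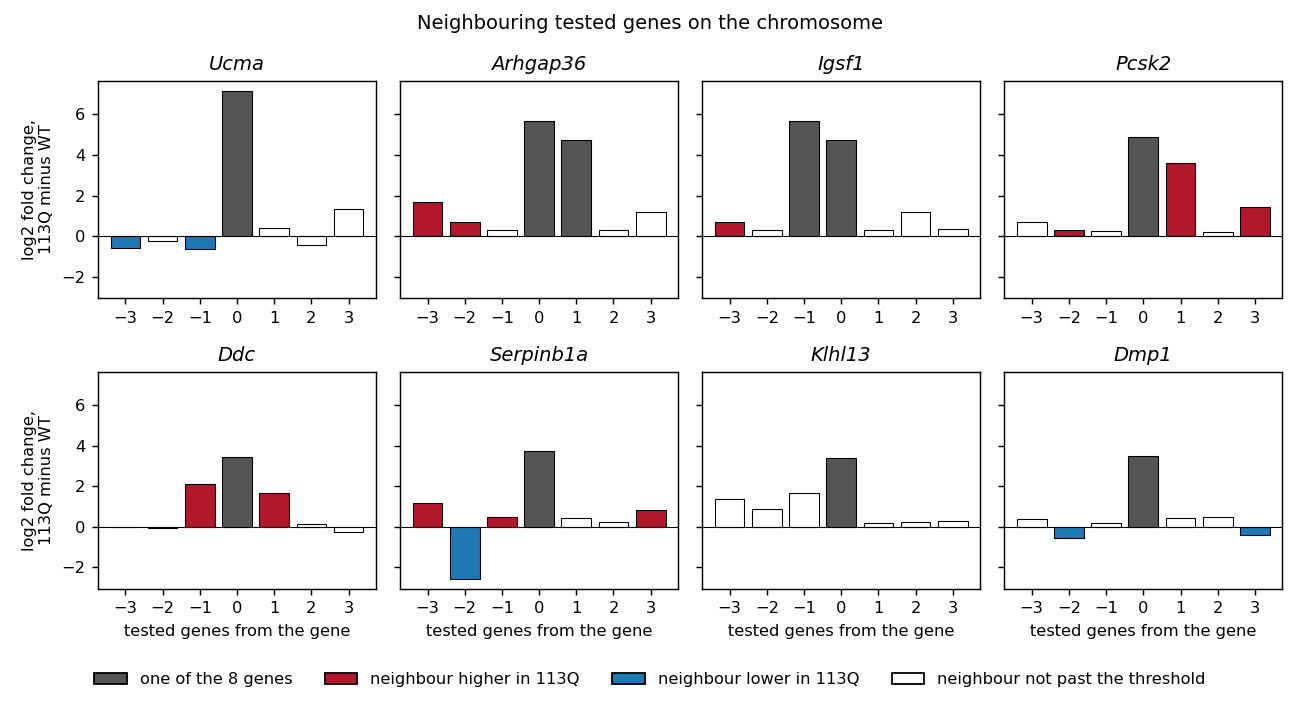
Log2 fold change (113Q minus WT) of each of the 8 genes (position 0, grey) and of the 3 nearest tested genes on each side in order of start position. Neighbours past the edgeR threshold are filled, and Gm12360, at position 1 beside Pcsk2, has the largest bar among them at 3.6.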

How the data were processed

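The authors deposited 1 table of estimated counts (fragments assigned to each gene, not scaled to depth), made with Cuffdiff 2.1.1 after TopHat2 2.0.9 and Bowtie2 2.1.0 on mm10, per the submitters' processing notes. The annotation, any filters and the strandedness of counting were not given in the sources used here. Per the labels' protocols, Trizol RNA went into TruSeq mRNA-Seq libraries.

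Of the deposited estimated counts, 5.38% to 5.96% per library were not whole, so counts were rounded. Counts were compared with edgeR 4.0.16 in R 4.3.3 (filterByExpr with minimum count 10, TMM factors, robust quasi-likelihood F test, two-sided, Benjamini-Hochberg over 16960 genes, threshold 0.05). SE was taken as the size of the log2 fold change over the root of F. CPM are TMM-scaled, and the TMM factors were 1.26 to 1.32 in 113Q and 0.768 to 0.794 in WT, so they follow the genotype. In 1 library, 3 counts correspond to 0.0322 to 0.0335 CPM in 113Q and 0.0566 to 0.0888 CPM in WT. Such limits cover counting error only. The libraries come from separate mice, and p-values measure the spread between them.

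The 8 genes, the partner and marker lists and the tests were chosen with earlier results of these data known. Named were the 8 genes, up to 4 members of each partner list with the smallest p and fixed direct partners, called neighbours and the nearest profiles. Other genes were chosen after their values were seen, among them Tph2, Qdpr, Maob, Vkorc1, Enpp1, Smo, Sufu, Prkx, Pkia, Thrb, Tbl1x, Klhl34, Klhl30, Klhl22, Klhl12, Pts, Comp, Chad and Sox9. On simulated data for this comparison, with 200 of 16679 tested genes changed, edgeR recovered 16.4%, 54.7% and 85.7% of genes changed 1.5, 2 and 4 times, and 12% of its 125 calls were unchanged genes. The simulation changed few genes, in random directions, and held no difference in composition between groups. In the real libraries 34.6% of genes were called and the TMM factors follow the genotype, so these shares need not hold there. Some genes are not reported here.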

Additional observations from a re-analysis of the deposited data

How the results depend on the processing

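All 8 genes were higher in 113Q under each of the 17 alternatives that gave a value. They were chosen on this contrast and their groups do not overlap. Their direction in any subset of the libraries was thus fixed in advance and is no test. Their median log2 fold change was 4.25 and lay between 3.99 and 4.57 without each mouse in turn. It was 4.97 with library totals alone, 5.0 in the libraries with epithelial transcripts and 3.53 as a difference of log2(CPM + 1), which compresses low levels. Of 135 single values of the 8 genes, 118 moved by less than the spread between replicates, and the lowest was 0.46 for Dmp1 with log2(CPM + 1). Dmp1 did not pass the filter of at least 1 CPM in 3 libraries and has no value there.

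Over all genes, 2791 were higher and 3078 lower. With library totals alone these were 11015 and 710, and without the libraries that hold epithelial transcripts 1300 and 1827, a choice made after seeing the data that leaves 1 113Q mouse, assumed to vary like WT. Without each mouse they were 2004 to 2559 and 2312 to 2843. Of the partner genes, 62 were higher and 11 lower with library totals alone, 13 were higher in the libraries without epithelial transcripts, and without each mouse 19 to 24 were higher and 18 to 22 lower. Of the neighbours, 30 were higher and 1 lower with library totals alone, 5 higher and 3 lower in the libraries without epithelial transcripts, 3 lower with the replicate block, and 6 to 9 higher and 3 to 5 lower without each mouse. Of the 10 nearest profiles, 4 were shared with log2(CPM + 0.1).

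Of 1046 values of 70 named genes, 893 kept direction and side of the threshold. A further 109 kept direction but lost a call, and 13 kept direction and gained one. The other 31 turned direction, with or without a change of call. With library totals alone the turned log2 fold changes were 0.40 for Furin, 0.44 for Ptch1, 0.65 for Prkaca, 0.09 for Prkar2a, 0.07 for Klf9, 0.01 for Cul3, 0.68 for Klhl9, 0.15 for Bend7, 0.08 for Phyh, 0.15 for Nudt9, 0.31 for D930016D06Rik, 0.24 for Pkia, 0.34 for Klhl30 and 0.65 for Sox9. In the libraries with epithelial transcripts they were -0.20 for Spp1, -0.26 for Gli1, 0.12 for Prkaca, -0.14 for Serpinb8 and 0.04 for Klhl9. Without each mouse in turn Gli1 lay between -0.06 and 0.22, being -0.02 without 113Q mouse 1, Prkaca between -0.15 and 0.01, Comp between -1.5 and 2.46, Chad between -1.49 and 3.08 and Sox9 between -0.38 and 0.53, being 0.17 without 113Q mouse 1. In the libraries without epithelial transcripts Comp was 2.7 and Chad 3.57, and with the replicate block Comp was 1.2, Chad 1.01 and Sox9 0.02. The cause was not tested.

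Mouse numbers are shared by the groups, but the correlations of same-numbered mice's deviations were 0.198, 0.236 and -0.274. The highest, 0.379, was between 113Q mouse 3 and WT mouse 2, which both hold epithelial transcripts. The correlations thus gave no sign of pairing by number. Whether other differences between the libraries mask a pairing was not tested. With the replicate block, Tph2, Mgp, Vkorc1, Klhl12, Bend7, Kif16b, Dstn and D930016D06Rik lost their calls. Depth limits Ucma, Arhgap36, Pcsk2 and Dmp1 in WT, which rest on 27, 44, 87 and 6 counts.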
